A study of Rattus norvegicus with 5 samples.

Results

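The genes described here encode the voltage-gated sodium channels and the voltage-gated calcium channels of rat striatal projection neurons. Members were all genes whose symbol in the authors' deposited comparison starts with Cacn, or with Scn followed by a digit. This gave 29 genes among the 12054 of that table and the 32285 gene identifiers counted, 12 of them coding for pore-forming subunits and 17 for auxiliary subunits. All 29 passed the filter on low counts that left 13811 genes to test. Members of these families that the table does not list were not analysed here.

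Neurons were taken from rat striatum by laser capture after a fluorescent tracer, infused into the fields where striatal axons end, had travelled back to their cell bodies. Striatomesencephalic neurons, which project to the midbrain and form the direct pathway, gave 2 libraries. Striatopallidal neurons, which project to the pallidum and form the indirect pathway, gave 3 libraries. No treatment or genotype is labelled in either group, and the sources used here give no strain, sex, age, number of animals or number of captured cells. No label says whether the libraries within a group are from different animals, so p-values measure only the spread between these 5 libraries.

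A voltage-gated channel is built around a large pore-forming alpha subunit, which senses the membrane voltage and opens a path for sodium or calcium. Sodium channels carry the rising phase of the action potential, while calcium channels turn a voltage change into calcium entry that drives transmitter release, gene expression and firing patterns. Auxiliary subunits (the sodium channel beta subunits and the calcium channel beta, alpha2delta and gamma subunits) set how many channels reach the membrane and how they gate. Most gamma subunits of the Cacng family found in brain serve mainly as transmembrane AMPA receptor regulatory proteins (TARPs), which escort and tune glutamate receptors.

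Library totals ran from 20845178 to 24805062 counts, so that 3 counts, taken as the detection floor, stood for 0.121 to 0.144 CPM (a gene's counts scaled by the library's total). No molecular identifiers are described, and such floors cover counting error only. Every member had at least 1 count in every library, and Cacna1g went as low as 6 counts. Striatopallidal replicate 2 stood apart from the other libraries, with a Spearman correlation across the 13811 genes, which are not replicates, of 0.785 to 0.820 against 0.845 to 0.907 between all other pairs. The 0.845 was the pair of striatomesencephalic libraries. They correlated less with each other than with striatopallidal replicates 1 and 3, at 0.852 to 0.880. Striatopallidal replicate 2 held the lowest CPM of the 3 striatopallidal libraries for 21 of the 29 members and the highest for 7, and for 7879 and 3626 of the 13811 genes. As a check of the labels, Drd1 had 861 and 1084 CPM in striatomesencephalic and 582, 311 and 415 CPM in striatopallidal libraries. Drd2 had 144 and 110.0 CPM in striatomesencephalic and 606, 391 and 524 CPM in striatopallidal libraries. Adora2a, another indirect pathway marker, had 824 and 1150 CPM in striatomesencephalic and 2558, 3676 and 2814 CPM in striatopallidal libraries. Of the 9 pathway markers matched, 8 were apart between the groups and Chrm4 overlapped, while 21.1% of all genes tested were apart. Markers of each pathway were thus counted in both groups, and how far the libraries mix the neuron types was not tested. Of 8 markers of spiny projection neurons, all were found in every library, with summed CPM of 12199 and 17603 for striatomesencephalic and 19976, 17664 and 20161 for striatopallidal libraries.

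No channel gene passed the test between the neuron types. In edgeR's quasi-likelihood test with Benjamini-Hochberg adjustment over all genes, 0 of 29 members had an adjusted p below 0.05, as did 0 of all 13811 genes (0%), and the smallest adjusted p among members was 0.779. DESeq2 called 226 genes, of which 0 were members, and limma voom called 0 members. At an unadjusted p below 0.05 there were 3 members (10.3%), against 839 of 13811 genes (6.07%) and 6.37% of those in the authors' deposited table. Among them were the L-type pore gene Cacna1c on the lower side and the TARP gene Cacng4 on the higher side. Of all genes, 2.93% were past it on the higher side and 3.14% on the lower side. The CPM ranges of the 2 groups did not overlap for 14 members (48.3%), against 21.1% of all genes tested and 22.2% of those in the authors' deposited table. Of these 14, 8 lay higher in striatomesencephalic libraries, where all genes gave 11.2%, and 6 lay lower, where all genes gave 9.91%. With the libraries rescaled by TMM (a scaling that offsets differences in library make-up), the count was 11 members (37.9%) against 21.6% of all genes, and 10 members were apart, with the same direction, on plain, TMM-scaled and RLE-scaled CPM. Those described singly here were Scn8a, Cacna1b, Cacnb4, Cacng4 and Cacng7 on the higher side and Cacna1c, Cacna1i, Cacnb3 and Scn3b on the lower side. Adjusted p-values of the 29 members in edgeR's quasi-likelihood test ran from 0.779 to 0.995.

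Sequences just ahead of the transcription start are shown for pore genes of that set of 10, to give the regulatory DNA of genes whose levels lay apart in opposite directions. They come from RefSeq on build GRCr8, which is not the build Rnor_6.0 of the counts, and span 300 bases around the start, most of them ahead of it. The table held entries for Scn8a (chr7:133860977-133861276, plus strand), Cacna1b (chr3:27944236-27944535, minus strand) and Cacna1c (chr4:154051699-154051998, minus strand). Capitals mark the GC box GGGCGG, the core of an Sp1 site, on either strand. It stood 7 times in the Scn8a window, 3 times in the Cacna1b window and 0 times in the Cacna1c window, while 33.1% of 33469 promoters of the same length held it at least once. The TATA box TATAAA, searched on both strands, was in none of the 3 windows and in 14.2% of all promoters, and neither motif contains the other. Only 18 of the 29 members had an entry, too few for a statement on the composition of the family's promoters. For a gene with several entries, the first was taken. Cacnb3, on the lower side of that set of 10, also had an entry, and its window held the GC box 3 times. Whether the box goes with the direction of a gene was not tested. A match describes letters only, and no factor's binding was measured.
Scn8a: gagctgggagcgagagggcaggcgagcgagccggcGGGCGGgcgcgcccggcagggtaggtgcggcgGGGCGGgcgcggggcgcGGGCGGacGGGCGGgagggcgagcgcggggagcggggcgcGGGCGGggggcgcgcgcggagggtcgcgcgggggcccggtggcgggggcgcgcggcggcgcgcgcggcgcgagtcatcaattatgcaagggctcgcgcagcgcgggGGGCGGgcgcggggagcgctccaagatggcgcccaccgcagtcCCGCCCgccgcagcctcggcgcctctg
Cacna1b: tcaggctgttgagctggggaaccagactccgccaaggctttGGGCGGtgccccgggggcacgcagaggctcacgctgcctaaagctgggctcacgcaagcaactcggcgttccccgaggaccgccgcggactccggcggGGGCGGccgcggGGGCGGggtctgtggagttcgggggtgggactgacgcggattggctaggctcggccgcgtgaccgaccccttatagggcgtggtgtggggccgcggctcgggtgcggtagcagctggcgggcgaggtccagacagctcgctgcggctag
Cacna1c: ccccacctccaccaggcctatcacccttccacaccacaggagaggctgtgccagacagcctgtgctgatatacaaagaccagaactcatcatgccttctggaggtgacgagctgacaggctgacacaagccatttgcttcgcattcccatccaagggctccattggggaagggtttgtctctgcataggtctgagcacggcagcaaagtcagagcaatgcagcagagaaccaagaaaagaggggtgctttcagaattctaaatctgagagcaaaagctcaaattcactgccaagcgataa

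Sodium channel pore genes held more counts in striatomesencephalic libraries when summed. Scn8a encodes the alpha subunit known for starting action potentials at the axon initial segment, and Scn1a the one known best from fast-spiking interneurons. The 4 measured alpha genes together stood at 803 and 776 CPM for striatomesencephalic and 584, 453 and 576 CPM for striatopallidal libraries. The groups did not overlap, on TMM-scaled CPM either. In bulk libraries like these, fewer cells of a type and less RNA per cell cannot be told apart. Scn8a stood at 423 and 546 CPM in the striatomesencephalic group, against 305, 295 and 295 CPM for the striatopallidal one. On plain CPM its striatopallidal values were the tightest of all 29 members, with a highest value 1.03 times the lowest. Both striatomesencephalic libraries lay above them on plain and on TMM-scaled CPM. The TMM factors of striatopallidal replicates 1, 2 and 3 were 1.14, 0.774 and 1.06, so rescaling moves those values apart. The log2 fold change of Scn8a (striatomesencephalic minus striatopallidal throughout), fitted with TMM factors, was 0.61 ± 0.35 (SE). Its adjusted p was 0.796 in edgeR's quasi-likelihood test. The authors' deposited table gave Scn8a a p of 0.0472 and an adjusted p of 0.927.

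Scn1a had 356 and 211 CPM in the striatomesencephalic group, against 243, 147 and 244 CPM for the striatopallidal one. Its groups overlapped, and the log2 fold change of 0.38 ± 0.38 (SE) was -0.02 without striatomesencephalic replicate 1. Scn9a, known for its role in pain-sensing neurons, had 18.6 and 17.8 CPM in striatomesencephalic and 36.4, 10.8 and 36.5 CPM in striatopallidal libraries, which gave -0.60 ± 0.72 (SE) as log2 fold change. The striatomesencephalic libraries were near each other, and striatopallidal replicate 2 lay below them while replicates 1 and 3 lay above. Without that replicate the log2 fold change of Scn9a was -0.92, and its unadjusted p remained above 0.05 in each of the 12 alternative fits.

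**Figure D1:**
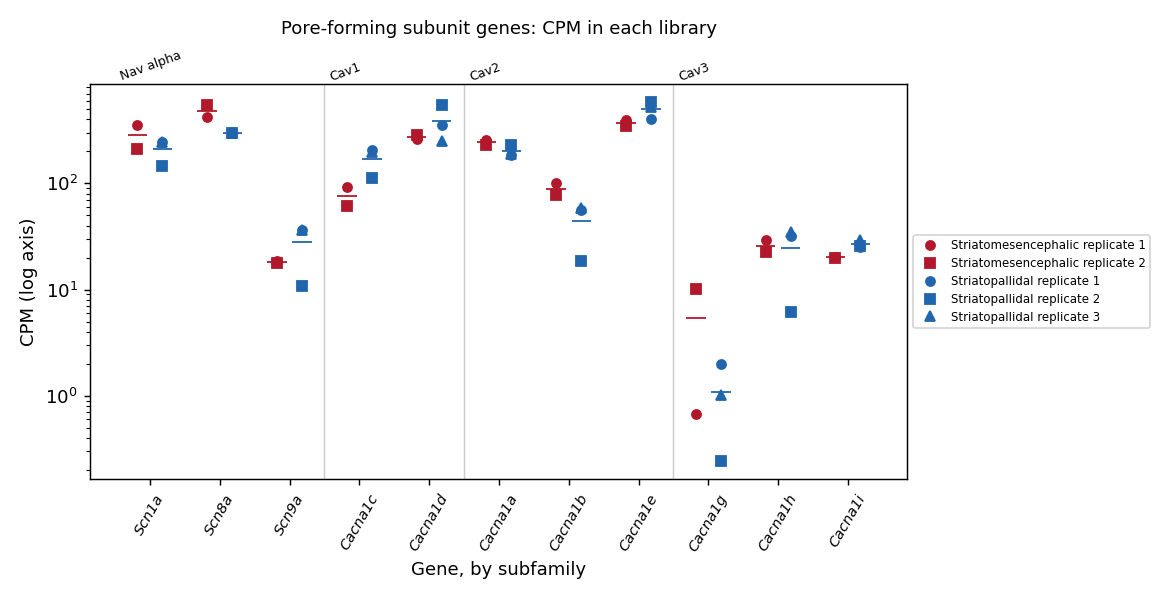
CPM on a log axis (vertical) for 11 pore-forming subunit genes (horizontal, by subfamily), with 1 point per library and short lines at group means, striatomesencephalic left of striatopallidal. The points of Scn8a and Cacna1b lie higher in both striatomesencephalic libraries and those of Cacna1c lower, while Scn1a, Scn9a, Cacna1d, Cacna1g and Cacna1h overlap.

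The calcium channel pore genes fall into the L-type (Cav1), the P/Q-, N- and R-type (Cav2) and the T-type (Cav3) families. L-type channels couple depolarization to gene expression and shape the firing of spiny neurons. Cacna1c stood at 92.3 and 60.6 CPM in the striatomesencephalic group, against 204, 111 and 197 CPM for the striatopallidal one. Both striatomesencephalic libraries lay below all 3 striatopallidal ones under each of the 3 scalings. The log2 fold change of -1.20 ± 0.44 (SE) had an adjusted p of 0.779 in edgeR's quasi-likelihood test, and it ran from -1.51 to -0.94 with each library left out in turn, the unadjusted p from 0.015 to 0.164. Cacna1d, the other L-type pore gene measured, had 261 and 286 CPM in the striatomesencephalic group, against 352, 544 and 252 CPM for the striatopallidal one. Its groups overlapped, striatopallidal replicate 3 being the lowest of all, and the log2 fold change of -0.65 ± 0.53 (SE) was -0.05 without striatopallidal replicate 2. Summed, the 2 L-type genes stood at 353 and 347 CPM in striatomesencephalic and 556, 655 and 449 CPM in striatopallidal libraries, with no overlap.

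The Cav2 genes, which encode the channels of presynaptic release and of R-type current, pointed in different directions. Cacna1b, the N-type pore gene, had 100.2 and 77.2 CPM in the striatomesencephalic group, against 56.0, 18.4 and 59.3 CPM for the striatopallidal one. The groups were apart, and striatopallidal replicate 2 lay far below the other libraries. The log2 fold change of 1.0 ± 0.57 (SE) had an adjusted p of 0.794 (edgeR) and was 0.70 without that replicate. Cacna1e, the R-type pore gene, had 398 and 349 CPM in the striatomesencephalic group, against 407, 579 and 527 CPM for the striatopallidal one, which gave -0.56 ± 0.40 (SE) as log2 fold change. Cacna1a, the P/Q-type pore gene, had 256 and 229.6 CPM in striatomesencephalic and 185, 228 and 190.3 CPM in striatopallidal libraries, which gave 0.15 ± 0.41 (SE) as log2 fold change. For both Cacna1e and Cacna1a the plain CPM ranges were apart by a narrow margin, and they overlapped on TMM-scaled CPM. The TMM-scaled value of Cacna1a in striatopallidal replicate 2 was 294 CPM.

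Within a library, the proportions of the pore genes do not depend on how libraries are scaled against each other. Such shares are not corrected for transcript length, so each compares libraries and not genes. Cacna1a took 22.1% and 21.8% of the CPM of the 8 calcium channel pore genes in the striatomesencephalic group, against 14.6%, 15.1% and 14.7% for the striatopallidal one. Within each group the values agreed to less than 1 percentage point, and the groups were far apart by comparison. This is 1 of 29 shares computed, and the log2 fold change of Cacna1a itself was 0.15 ± 0.41 (SE). Cacna1b took 8.66% and 7.31% in striatomesencephalic and 4.43%, 1.22% and 4.59% in striatopallidal libraries. The share of Cacna1c overlapped, at 7.97% and 5.75% in striatomesencephalic and 16.2%, 7.36% and 15.2% in striatopallidal libraries. Those of Cacna1d and Cacna1e overlapped too. Of the sodium channel alpha genes, Scn8a took 52.7% and 70.3% in striatomesencephalic and 52.2%, 65.1% and 51.3% in striatopallidal libraries, which also overlapped. The L-type pair took 30.5% and 32.9% in the striatomesencephalic group, against 44.0%, 43.3% and 34.8% for the striatopallidal one, and the Cav2 genes 65.2% and 62.1% in striatomesencephalic and 51.3%, 54.6% and 60.2% in striatopallidal libraries. Shares add up to the whole, so a lower L-type share and a higher Cav2 share are not separate observations. Such shares were computed for all 29 members, with no background over other genes, so how many of them lay apart is not read as a result. No p is given, since the smallest that exact two-sided permutation allows for 2 and 3 libraries is 0.1.

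**Figure D2:**
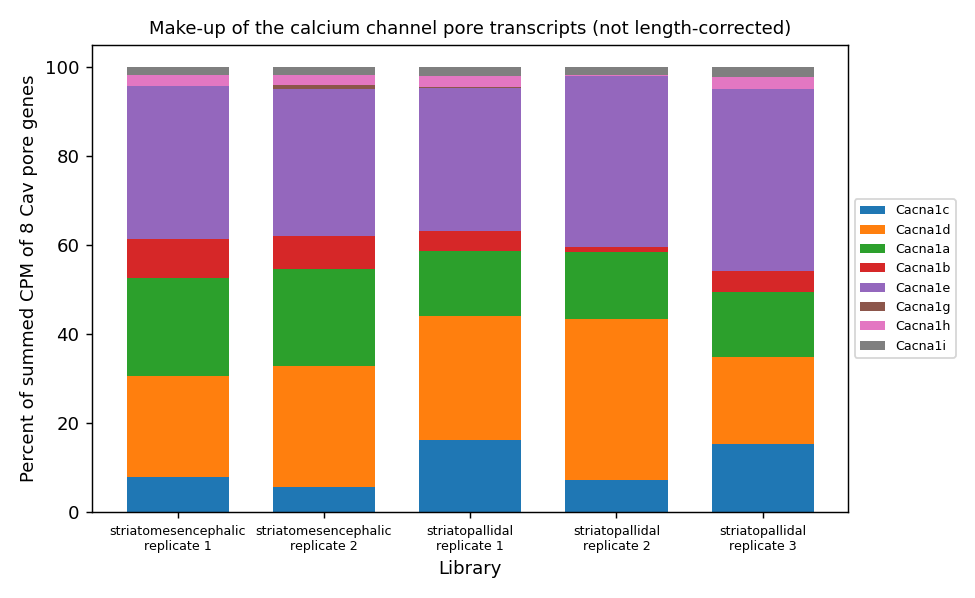
Share of the summed CPM of the 8 calcium channel pore genes (vertical, percent) taken by each gene in each of the 5 libraries (horizontal), without correction for transcript length. The Cacna1a segment is 22.1% and 21.8% in striatomesencephalic libraries against 14.6% to 15.1% in striatopallidal libraries, and the Cacna1c and Cacna1d segments together are smaller in striatomesencephalic libraries.

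T-type channels open near the resting potential and support burst firing. Cacna1i had 20.2 and 19.9 CPM in the striatomesencephalic group, against 25.4, 25.9 and 29.1 CPM for the striatopallidal one. The groups were apart under all 3 scalings. On plain CPM the values were close within each group, but the TMM factor of striatopallidal replicate 2 was 0.774, so rescaling moves the striatopallidal values apart. The log2 fold change of Cacna1i, fitted with TMM factors, was -0.51 ± 0.64 (SE). Its adjusted p was 0.913 in edgeR's quasi-likelihood test. Cacna1h had 29.1 and 22.6 CPM in the striatomesencephalic group, against 32.2, 6.21 and 35.0 CPM for the striatopallidal one, which gave 0.11 ± 0.79 (SE) as log2 fold change. Striatopallidal replicate 2 alone lay below the striatomesencephalic values, and without it the log2 fold change of Cacna1h was -0.30. Cacna1g had 14 and 231 counts in the striatomesencephalic group, against 48, 6 and 23 counts for the striatopallidal one. That log2 fold change of 2.38 ± 1.43 (SE) rested on striatomesencephalic replicate 2 and was -0.65 without it.

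Auxiliary subunit genes leaned the other way from pore genes by their medians. The median log2 fold change was -0.44 over the 17 auxiliary genes, with 7 above and 10 below 0, and 0.13 over the 12 pore-forming genes, with 7 above and 5 below 0. Over all 13811 genes the median was -0.06, with 47.4% of genes above and 52.6% below 0. The pore-forming median was -0.04 without striatomesencephalic replicate 1 and -0.14 without striatomesencephalic replicate 2, where the median of all genes was -0.27 in both fits. The auxiliary median stayed below 0 in each of the 12 alternative fits and was -0.11 without striatopallidal replicate 1 or 2. Without striatomesencephalic replicate 1 it was -0.23, which is above the median of all genes in that fit. Summed CPM of the auxiliary genes was 5827 and 6091 for striatomesencephalic and 7223, 6148 and 7233 for striatopallidal libraries, and that of the pore-forming genes was 1960 and 1831 in striatomesencephalic and 1847, 1966 and 1867 in striatopallidal libraries. Auxiliary genes took 74.8% and 76.9% of all members' CPM in striatomesencephalic libraries and 79.6%, 75.8% and 79.5% in striatopallidal libraries, so their share overlapped between the groups. Whether the 2 classes differ in how they relate to neuron type was not tested.

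Scn2b, Scn3b and Scn4b, genes of sodium channel beta subunits, had fold changes below 0, and none passed. Scn4b encodes the beta subunit known for resurgent sodium current and is abundant in striatum. Scn4b had 1151 and 1536 CPM in the striatomesencephalic group, against 2398, 1201 and 2778 CPM for the striatopallidal one. Replicates 1 and 3 of the striatopallidal group lay above both striatomesencephalic libraries and replicate 2 lay between them. On TMM-scaled CPM the groups were apart, as they were on plain CPM without striatopallidal replicate 2. The log2 fold change was -0.68 ± 0.32 (SE), at an adjusted p of 0.779 in edgeR's quasi-likelihood test. Scn3b, which encodes another beta subunit, had 299.7 and 549 CPM in the striatomesencephalic group, against 743, 571 and 728 CPM for the striatopallidal one. Its groups were apart under all 3 scalings. On plain CPM the margin was narrow, between striatomesencephalic replicate 2 and striatopallidal replicate 2. The log2 fold change was -0.75 ± 0.37 (SE), and it was -0.36 without striatomesencephalic replicate 1. Both Scn3b and Scn4b had an unadjusted p below 0.05 in limma voom and not in edgeR's quasi-likelihood test. Scn2b was thinly counted, with 10 and 78 counts for striatomesencephalic and 160, 52 and 79 for striatopallidal libraries, and its log2 fold change of -1.05 ± 1.25 (SE) was -0.23 without striatomesencephalic replicate 1 and -3.09 without striatomesencephalic replicate 2.

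Beta subunits of calcium channels bind inside the cell and carry the pore to the membrane. Cacnb4 had 405 and 269.7 CPM in the striatomesencephalic group, against 224, 194 and 253 CPM for the striatopallidal one, which gave 0.51 ± 0.36 (SE) as log2 fold change. Cacnb3 had 11.8 and 33.0 CPM in the striatomesencephalic group, against 40.2, 39.1 and 49.4 CPM for the striatopallidal one, which gave -1.01 ± 0.71 (SE) as log2 fold change. Both were apart between the groups under all 3 scalings, in opposite directions, and the value of Cacnb3 was -0.44 without striatomesencephalic replicate 1. Cacnb2 had 726 and 716 CPM in the striatomesencephalic group, against 835, 1086 and 741 CPM for the striatopallidal one, which gave -0.44 ± 0.39 (SE) as log2 fold change. Its groups were apart on plain CPM only, and the value was -0.04 without striatopallidal replicate 2. Cacnb1 had 70.6 and 157 CPM in striatomesencephalic and 132, 27.1 and 112 CPM in striatopallidal libraries and overlapped. As a share of the 4 beta genes, Cacnb4 took 33.4% and 22.9% for striatomesencephalic and 18.2%, 14.4% and 21.9% for striatopallidal libraries, and Cacnb2 59.8% and 60.9% in striatomesencephalic and 67.8%, 80.7% and 64.2% in striatopallidal libraries. The summed CPM of the 4 genes overlapped, at 1213 and 1175 in striatomesencephalic and 1231, 1347 and 1155 in striatopallidal libraries.

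The alpha2delta subunits sit on the outer face of the membrane, raise channel numbers there and include the binding site of gabapentin. None of the 3 measured genes was apart between the neuron types. Cacna2d3 had 2023 and 1585 CPM in the striatomesencephalic group, against 1634, 1686 and 1449 CPM for the striatopallidal one. On plain CPM these values lay close together in all 5 libraries. The log2 fold change of 0.07 ± 0.31 (SE) had the smallest standard error of the 29 members. Cacna2d1 had 442 and 701 CPM in the striatomesencephalic group, against 665, 1004 and 644 CPM for the striatopallidal one, which gave -0.58 ± 0.47 (SE) as log2 fold change. Striatomesencephalic replicate 1 was the low value and striatopallidal replicate 2 the high one. Cacna2d2 had 44.1 and 15.1 CPM in striatomesencephalic and 50.3, 30.2 and 61.5 CPM in striatopallidal libraries, and its log2 fold change of -0.72 ± 0.68 (SE) was -1.66 without striatomesencephalic replicate 1 and -0.15 without striatomesencephalic replicate 2.

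The Cacng genes summed to 646 and 519 CPM in the striatomesencephalic group, against 468, 305 and 403 CPM for the striatopallidal one, with no overlap on plain or TMM-scaled CPM. Most of that gap lay in Cacng4, which encodes a TARP that slows the closing of AMPA receptors. Cacng4 had 322 and 216 CPM in the striatomesencephalic group, against 151, 79.5 and 96.4 CPM for the striatopallidal one. Both striatomesencephalic libraries lay above all striatopallidal ones. The log2 fold change was 1.26 ± 0.40 (SE), with an unadjusted p of 0.0168 and an adjusted p of 0.779 in edgeR's quasi-likelihood test, and it ran from 0.97 to 1.51 with each library left out in turn, the unadjusted p from 0.0205 to 0.132. In the authors' deposited table Cacng4 had the smallest p of the members, 0.0144, at an adjusted p of 0.927. Cacng4 is also expressed by oligodendrocyte precursors and astrocytes, so their markers are given beside it. The 3 of 6 precursor markers matched summed to 256 and 187 CPM for striatomesencephalic and 278, 173 and 283 CPM for striatopallidal libraries. Most of that sum was Olig1, with 212 and 152 CPM in striatomesencephalic and 239, 136 and 216 CPM in striatopallidal libraries. Pdgfra had 43.6 and 27.8 CPM in striatomesencephalic and 32.8, 36.0 and 44.9 CPM in striatopallidal libraries. The 8 astrocyte markers summed to 1160 and 1037 CPM in striatomesencephalic and 1396, 986 and 1190 CPM in striatopallidal libraries. Of these 8, Slc1a2 and Aldh1l1 lay higher in both striatomesencephalic libraries, Gfap and Aqp4 lay lower, and the other 4 overlapped. Gfap lay far lower, with 11.5 and 3.85 CPM in striatomesencephalic and 243, 175 and 87.7 CPM in striatopallidal libraries. Its log2 fold change was -4.56 ± 0.82 (SE), at an adjusted p of 0.779 in edgeR's quasi-likelihood test. Both sums overlapped between the groups, no marker of either list was at 0 in any library, and the part of these cells in the Cacng4 values was not tested.

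Among the other Cacng genes, Cacng7 and Cacng8 were apart on plain CPM and Cacng3 was level. Cacng7, a type II TARP, had 19.1 and 25.3 CPM in the striatomesencephalic group, against 12.4, 5.04 and 14.3 CPM for the striatopallidal one, which gave 1.07 ± 0.74 (SE) as log2 fold change. Cacng8, a TARP known for its role in hippocampus, had 73.2 and 58.8 CPM in striatomesencephalic and 47.3, 52.7 and 48.2 CPM in striatopallidal libraries, which gave 0.31 ± 0.53 (SE) as log2 fold change, and overlapped on TMM-scaled CPM. Cacng3, a TARP of forebrain neurons, had 178 and 172 CPM in the striatomesencephalic group, against 177, 145 and 187 CPM for the striatopallidal one. Its log2 fold change of -0.03 ± 0.37 (SE) was the nearest to 0 of all 29 members, and its sign turned when libraries were scaled by totals alone. Cacng2, which encodes stargazin, had 47.1 and 45 CPM in striatomesencephalic and 73.3, 18.7 and 42.2 CPM in striatopallidal libraries, and the striatopallidal libraries lay on both sides of the striatomesencephalic ones. Cacng5 had 132 and 68 counts for striatomesencephalic and 178, 103 and 327 counts for striatopallidal libraries. Within the family, Cacng4 took 49.9% and 41.5% of the CPM in the striatomesencephalic group, against 32.2%, 26.1% and 23.9% for the striatopallidal one, and Cacng3 27.5% and 33.1% in striatomesencephalic and 37.9%, 47.5% and 46.5% in striatopallidal libraries.

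**Figure D3:**
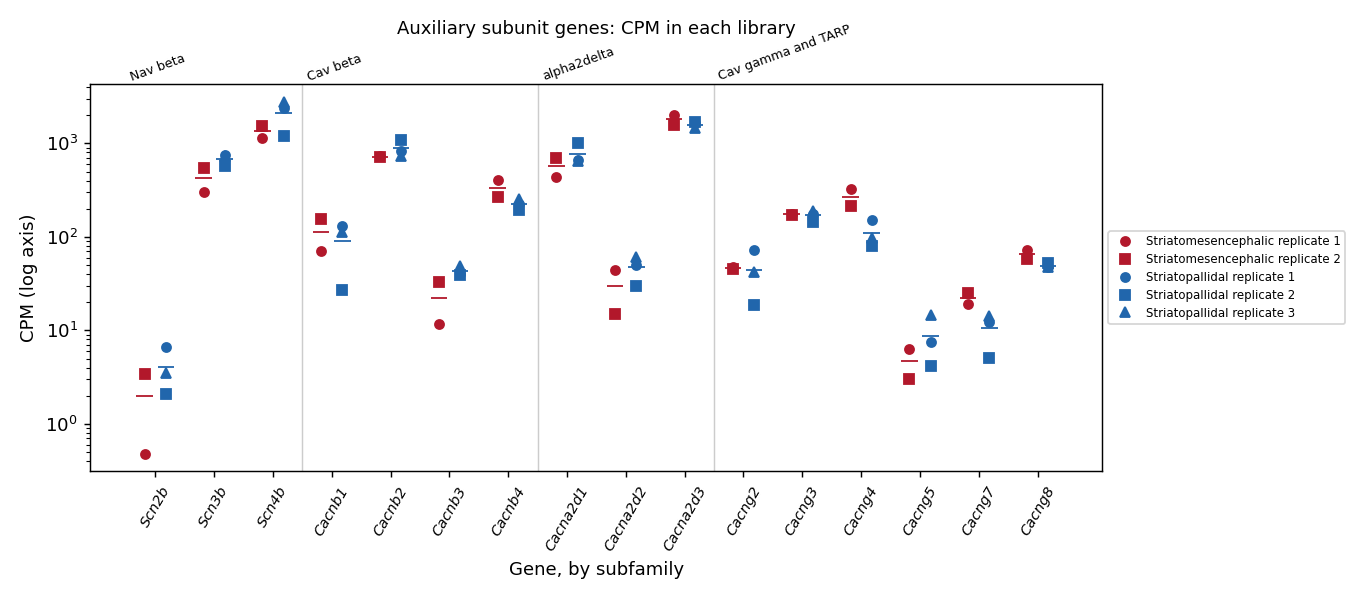
CPM on a log axis (vertical) for 16 auxiliary subunit genes (horizontal, by subfamily), with 1 point per library and short lines at group means, striatomesencephalic left of striatopallidal. Cacng4 and Cacnb4 lie higher in both striatomesencephalic libraries and Cacnb3 and Scn3b lower, while the 3 alpha2delta genes overlap.

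**Figure D4:**
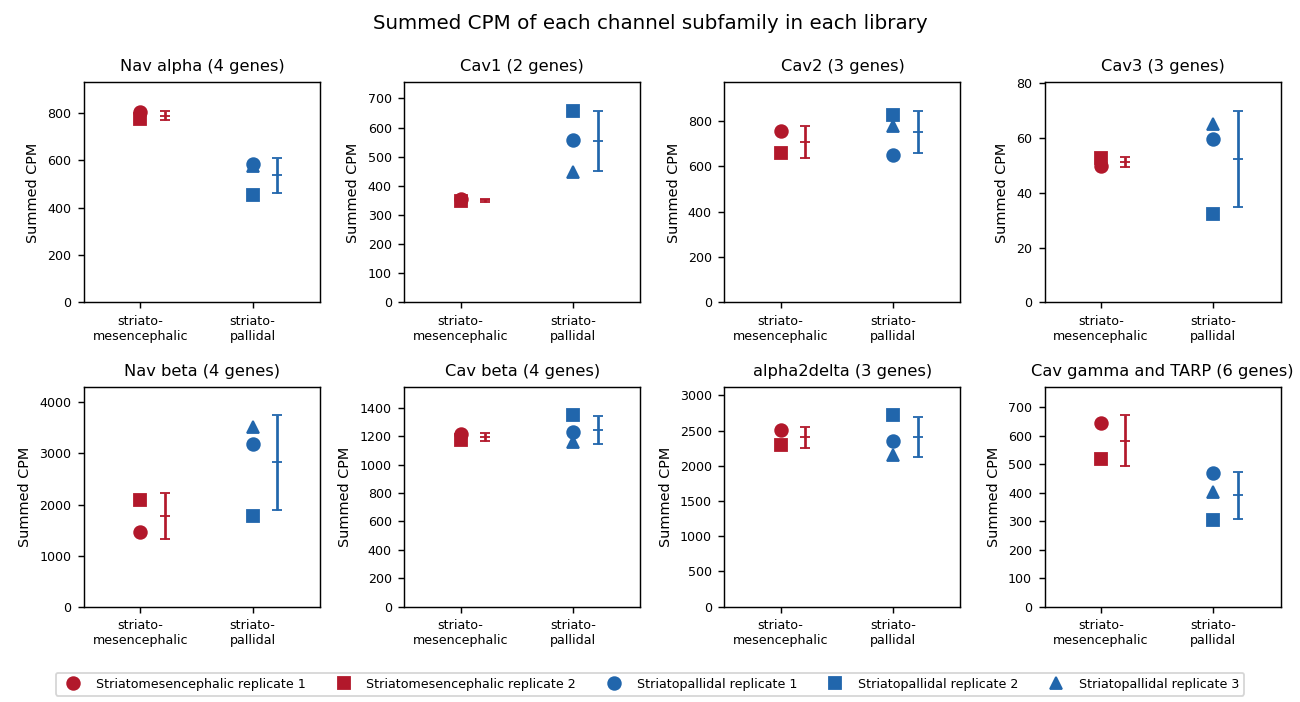
Summed CPM (vertical, from 0) of each of the 8 subfamilies in every library, striatomesencephalic left of striatopallidal, with the group mean and SD drawn beside the points (n = 2 and n = 3). On plain CPM the groups are apart for 3 subfamilies, Nav alpha and Cav gamma and TARP higher and Cav1 lower in striatomesencephalic libraries. No background was computed for sums of other genes.

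Across the 8 subfamilies, summed CPM was apart for 3 on plain CPM, and for 4 on TMM-scaled CPM, where the sodium channel beta genes joined. Of all single genes tested, 21.1% were apart on plain CPM and 21.6% on TMM-scaled CPM. No background was computed for sums of genes, and the sums hold members already counted singly. How many subfamilies lay apart is therefore not read as a result. The summed beta values were 1459 and 2095 CPM for striatomesencephalic and 3175, 1777 and 3520 CPM for striatopallidal libraries before rescaling. Most of the CPM in the alpha sum came from Scn8a and Scn1a. The highest striatomesencephalic CPM was 1.32 times the lowest by the median over the members, and the highest striatopallidal CPM 1.83 times the lowest. These ratios are over 2 and 3 libraries and tend to grow with the number of libraries, so they are not compared between the groups.

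**Figure D5:**
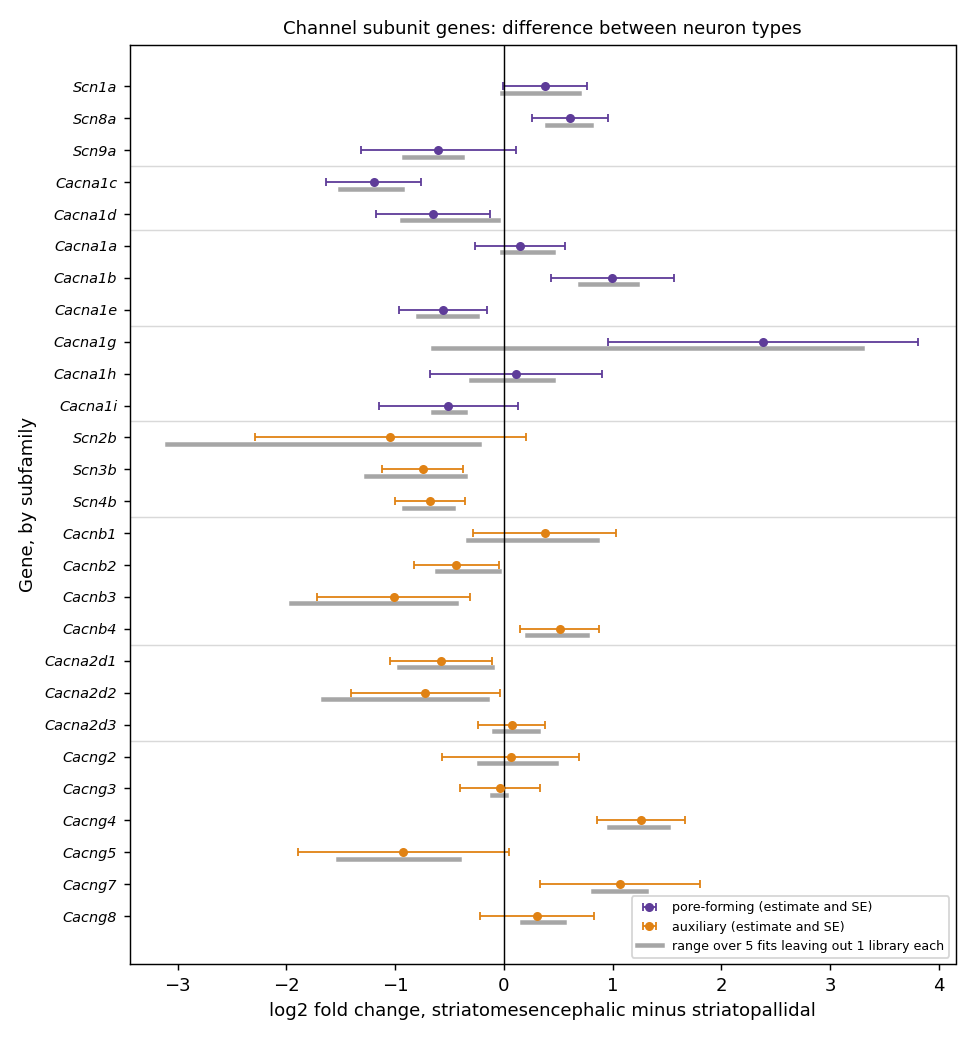
Log2 fold change (horizontal, striatomesencephalic minus striatopallidal) of 27 members (vertical, by subfamily), with bars for the standard error and grey lines for the range over the 5 fits that leave out 1 library each. No member passed after adjustment, and the widest of the ranges drawn belong to Cacna1g and Scn2b.

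Some members lie side by side in the genome, and neighbours had opposite signs in some pairs and the same sign in others. In RefSeq's gene order on GRCr8, 4 pairs of members follow each other with 0 protein-coding genes between them. Cacng4 and Cacng5 had log2 fold changes of 1.26 and -0.92, and Scn1a and Scn9a 0.38 and -0.60. Scn2b and Scn4b had -1.05 and -0.68, and Cacng7 and Cacng8 1.07 and 0.31. None of these differences between neighbours was tested.

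Proteins that anchor or tune these channels were examined as a list of 46 genes, of which 38 were matched and tested. Of these, 15 had fold changes above 0 and 23 below 0, with a median of -0.12, and 0 passed in edgeR's quasi-likelihood test. At an unadjusted p below 0.05 there were 5 of 38, of which 1 was higher and 4 were lower in the striatomesencephalic group, where all genes gave 6.07%, with 2.93% higher and 3.14% lower. Fgf14, a sodium channel binding factor of the axon initial segment, had 67.7 and 68.3 CPM in the striatomesencephalic group, against 172, 142 and 158 CPM for the striatopallidal one. That was a log2 fold change of -1.29 ± 0.42 (SE) at an adjusted p of 0.779, and both striatomesencephalic libraries lay well below the others. Snap25, a release protein that binds presynaptic calcium channels, had 548 and 533 CPM in striatomesencephalic and 991, 635 and 1414 CPM in striatopallidal libraries, which gave -0.94 ± 0.34 (SE) as log2 fold change. Stac, an adaptor of L-type channels, was counted 46 and 113 times in the striatomesencephalic group, against 8, 0 and 2 times for the striatopallidal one.

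Markers of striatal interneurons, which also carry Scn1a and N-type channels, pointed in different directions, while their sum lay apart between the groups. The 6 of 11 markers matched summed to 83.6 and 109 CPM for striatomesencephalic and 127, 157 and 166 CPM for striatopallidal libraries, with no overlap. Nos1 overlapped, at 30.8 and 58.9 CPM in striatomesencephalic and 69.0, 21.6 and 96.5 CPM in striatopallidal libraries. The other 5 were apart, as were 21.1% of all genes tested. Within the list, Sst, Chat and Kit lay lower in both striatomesencephalic libraries and Calb2 and Slc5a7 higher, and no matched marker was at 0. Their part in the channel values was not tested. Oligodendrocyte markers, 8 of 8 matched, summed to 5929 and 7348 CPM in striatomesencephalic and 7122, 6504 and 5277 CPM in striatopallidal libraries and overlapped.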

How the data were processed

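Read counts per gene were measured in 5 libraries of laser-captured neurons. Per the labels' protocols, cells were lysed in TRIzol and polyadenylated RNA was amplified with a single-cell kit (REPLI-g). TopHat2, HTSeq, edgeR and limma with build Rnor_6.0 are named per the submitters' processing notes, with neither role nor version. The authors deposited raw counts for 32285 Ensembl genes per library, which were the input of every test. The authors' deposited table of 12054 genes gave symbols, log2 fold changes, p-values and a test score. Its log2 fold change runs striatopallidal minus striatomesencephalic, judged by sign: 10536 of 11919 shared genes, and 28 of 29 members, had the opposite sign here.

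Counts were tested with edgeR 4.0.16 (R 4.3.3; filterByExpr, TMM, glmQLFit, glmQLFTest; Benjamini-Hochberg threshold 0.05). Standard errors are the log2 fold change divided by the root of F. CPM values are plain unless called TMM-scaled. The test was tried on simulated data first. Alternatives were DESeq2 1.42.0, limma 3.58.1 voom, other scalings and filters, a replicate block, and leaving out each library. Libraries of a group differed far beyond sampling noise (chi-square 164 to 520 for each degree of freedom), and none was counted as a duplicate. All 29 members enter the counts, medians and sums, and 2 of them are not reported singly here. Of the rest, library values are given for those with an unadjusted p below 0.05, those apart between groups and the 2 of highest mean CPM per subfamily, and for most others. Members and lists were chosen with earlier results of these data known. Strandedness is not given, so reads of overlapping genes cannot be told apart.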

Additional observations from a re-analysis of the deposited data

How the results depend on the processing

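No paired analysis was taken as the main one, because replicate numbers 1 and 2 are shared by both groups without any label that ties them to an animal or day, and deviations of same-numbered libraries from their group means correlated at -0.027 and -0.038 across genes. With the replicate block, which leaves striatopallidal replicate 3 without a partner, 0 members had an unadjusted p below 0.05 (3.37% of all genes), against 3 without it (6.07%), and the Cacna2d3 value turned to -0.027. The number of members past the adjusted threshold was 0 in all 12 alternatives, while the number of all genes was 226 with DESeq2. Limma voom gave 5 members at an unadjusted p below 0.05 (4.66% of all genes), and leaving out 1 library gave 0 to 5 (4.03% to 8.26% of all genes): 0 without striatomesencephalic replicate 1, 3 without striatomesencephalic replicate 2, 2, 5 and 1 without striatopallidal replicates 1, 2 and 3. The causes were not tested. Scaling by totals alone turned Cacng3 to 0.041. With each library left out, some values changed sign: Cacna1h ran from -0.30 to 0.45, being -0.055 without striatomesencephalic replicate 1, Cacna2d3 from -0.088 to 0.31, being -0.025 and -0.052 without striatopallidal replicates 1 and 3, Scn1a from -0.020 to 0.70, Cacna1a from -0.015 to 0.45, Cacng3 from -0.11 to 0.021, Cacng2 from -0.23 to 0.48, Cacnb1 from -0.33 to 0.85 and Cacna1g from -0.65 to 3.30. Summed pore-forming CPM in striatopallidal libraries averaged 1893, against 1971 on TMM-scaled CPM (chosen after the data were seen) and 1979.8 with RLE factors, and summed auxiliary CPM in striatomesencephalic libraries averaged 5959 against 5758 with RLE factors. Depth limits Cacna1g and Scn2b most among the members described singly.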
